A study of Mus musculus with 9 samples.

Results

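The genes that encode the ligands and receptors of axon guidance were followed in mouse brain tumor stem cells (BTSC) in which Gpd1 had been targeted. They were chosen by symbol as the semaphorins (Sema3 to Sema7), plexins, neuropilins, ephrins, Eph receptors, Slits, Robos, netrins, Dcc and Unc5 receptors. This gave 66 of the 21899 genes in the deposited table, 34 ligands and 32 receptors. Poly(A) RNA had been sequenced in 9 libraries of BTSC, which GEO's labels place in 3 groups of 3. The sgRNA1 KO and sgRNA2 KO groups were BTSC with Gpd1, the gene of cytosolic glycerol-3-phosphate dehydrogenase, cut by Cas9 from the lentiCRISPv2 plasmid with one of 2 guides. Per the labels, the KO cells were selected with puromycin, and colonies that each grew from a single cell were picked and expanded. The control group was BTSC with no guide named, and the labels do not say whether these libraries came from picked colonies. Nothing in the labels says that the controls were separate cultures, so p-values measure the spread between these libraries, which may be partly technical.

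In the developing nervous system, guidance cues tell growing axons and migrating cells where to turn. Semaphorins are secreted or membrane-bound and signal through plexins, with neuropilins as co-receptors for most of the secreted class 3. Ephrins are anchored to the membrane and bind Eph receptor tyrosine kinases on touching cells. Slits are secreted and repel cells that carry Robo receptors, and netrin-1 attracts through Dcc and repels through Unc5 receptors. Many of these genes are also expressed by neural progenitors, glia and gliomas, where they act on migration and adhesion.

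For 4 receptors whose changes are described below, the 250 bases before the annotated start of transcription are shown, to let the letters of a rising and a falling gene of the same family be compared. Plxnb3 rose and Plxnd1 fell among the plexins, and Epha4 rose and Epha2 fell among the Eph receptors. The sequences are RefSeq's, build GRCm38.p6, written 5′ to 3′ on the strand of the gene. Capitals mark matches on either strand to 4 motifs, namely the GC box GGGCGG, the TATA box TATAAA, the AP-1 motif TGANTCA and the E-box CAGCTG.
Plxnb3 (chrX:73756853-73757102, plus strand): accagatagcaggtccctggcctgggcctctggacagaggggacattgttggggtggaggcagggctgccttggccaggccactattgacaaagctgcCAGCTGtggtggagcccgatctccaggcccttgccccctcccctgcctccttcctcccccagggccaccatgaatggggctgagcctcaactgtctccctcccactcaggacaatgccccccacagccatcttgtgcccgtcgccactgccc
Plxnd1 (chr6:115995006-115995255, minus strand): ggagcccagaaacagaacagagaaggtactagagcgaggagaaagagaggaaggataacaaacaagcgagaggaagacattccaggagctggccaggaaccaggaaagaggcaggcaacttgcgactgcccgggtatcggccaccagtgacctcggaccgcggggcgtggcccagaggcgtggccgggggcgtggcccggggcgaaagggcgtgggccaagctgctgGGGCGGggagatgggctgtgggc
Epha4 (chr1:77515089-77515338, minus strand): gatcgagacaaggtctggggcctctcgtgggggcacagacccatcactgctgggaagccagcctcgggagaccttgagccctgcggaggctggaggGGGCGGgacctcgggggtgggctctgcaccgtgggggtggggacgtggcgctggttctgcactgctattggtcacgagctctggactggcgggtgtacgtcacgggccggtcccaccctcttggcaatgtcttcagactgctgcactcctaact
Epha2 (chr4:141300971-141301220, plus strand): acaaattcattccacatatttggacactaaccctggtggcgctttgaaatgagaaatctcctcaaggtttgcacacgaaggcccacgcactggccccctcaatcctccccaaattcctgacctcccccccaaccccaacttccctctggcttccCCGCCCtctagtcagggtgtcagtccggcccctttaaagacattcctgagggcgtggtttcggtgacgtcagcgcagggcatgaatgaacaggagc
The Plxnb3 stretch held 1 E-box and 3 CpG dinucleotides, and the Plxnd1 stretch held 1 GC box and 16 CpG dinucleotides. The Epha4 stretch held 1 GC box and 14 CpG dinucleotides, and the Epha2 stretch held 1 GC box and 9 CpG dinucleotides. No TATA box or AP-1 motif was in any of them. RefSeq windows of 300 bases around the start were found for 56 of the 66 genes, 72 windows in all. They are set beside all 32851 RefSeq windows, which came from 27025 genes and were not limited to genes of the deposited table or to genes tested. A GC box was in 69.4% of the guidance gene windows, against 35.7% of all windows. The median number of CpG dinucleotides was 19.5 in the guidance gene windows, against 7 over all windows. The TATA box was in 2.78% of the guidance gene windows, against 13.6% of all windows. The AP-1 motif was in 4.17% of the guidance gene windows, against 7.81% of all windows. The E-box was in 15.3% of the guidance gene windows, against 16.3% of all windows. Windows of guidance genes that rose in KO held a GC box in 7 of 16 cases, and windows of those that fell in 11 of 16. The windows of the other guidance genes held one in 32 of 40 cases. Some genes have several windows, so the 16 windows came from 10 genes that rose and from 13 that fell. The difference was not tested.

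Values are normalized read counts, which the authors had scaled with 1 factor per library. The totals of these scaled counts were 39781901 to 42975283 per library, which does not show the depth of each library before scaling. Counting error weighs most on genes with low values. Gpd1 (chromosome 15, 99717515 to 99725005 in mm10) stood at 3299, 1347 and 21351 with sgRNA1 and 10812, 10812 and 6945 with sgRNA2, against 25106, 26566 and 25836 in control. All 6 KO libraries were under all 3 controls. A log2 fold change of -1.99 was fitted (SE 0.72), with p = 0.0238 in a two-sided exact permutation test over 84 splits, in which the smaller tail was doubled (0.0476 when splits were counted by absolute difference), and with an adjusted p of 0.0516 in limma. Expression was less variable among the controls, with a median SD on the log2 scale of 0.323 in sgRNA1 KO, 0.344 in sgRNA2 KO and 0.0859 in control. Libraries sgRNA1 KO replicate 3 and sgRNA2 KO replicate 1 lay nearest the controls (Pearson correlation over all tested genes with each control from 0.962 to 0.972, against 0.909 to 0.945 for the other 4 KO libraries). Counts without these libraries are given where they move by over 1.5 times. Among stem cell markers, Sox2 was at 11565 to 23374 in KO and at 7105 to 8756 in control, and Nes, the nestin gene, was at 8451 to 24740 in KO and at 37297 to 46053 in control. All 13 stem cell markers listed summed to 194720 to 288320 in KO and 306515 to 348123 in control, and 3 of them rose and 4 fell. Summed markers of other cell types were 48697 to 127308 in KO and 43296 to 44586 in control for neurons, and 198005 to 403525 in KO and 133041 to 146574 in control for astrocytes, and 2 of 9 tested neuron markers and 5 of 12 astrocyte markers rose. Of the neuron sum, most came from Map2, at 46736 to 123669 in KO and 42431 to 43613 in control. Oligodendrocyte lineage markers summed to 124245 to 162211 in KO and 113909 to 123068 in control, with 4 of 11 tested higher and 1 lower. Most of this sum came from Olig1 (74269 to 103831 in KO, 69816 to 78890 in control) and Olig2 (26003 to 39961 in KO, 36225 to 38291 in control), which did not pass. Microglia markers summed to 34 to 64 in KO and 30 to 35 in control. Endothelial markers summed to 204 to 333 in KO and 681 to 726 in control, with 2 of 6 tested lower, mostly through Flt1 at 14 to 66 in KO and 445 to 456 in control. Pericyte and fibroblast markers summed to 1504 to 2432 in KO and 785 to 967 in control, nearly all from Cspg4 (1464 to 2405 in KO, 684 to 862 in control), which is also in the oligodendrocyte lineage list. The pericyte marker Rgs5 was at 1 to 5 in KO and 54 to 75 in control. Ependymal markers summed to 2307 to 3871 in KO and 5090 to 5461 in control, with 6 of 8 tested lower and 1 higher. Of the ependymal sum, most came from Foxj1, at 1413 to 2755 in KO and 3870 to 4241 in control. In bulk RNA, fewer cells of a type and less RNA per cell cannot be told apart, and the part of these shifts in the results below was not tested.

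Pooling both guides, 6 KO libraries were set against 3 controls to ask which guidance genes differed. Log2 fold changes are on the scale of log2(normalized read count + 1), which understates the change of genes with low values. Only genes whose 9 libraries averaged 10 or more were tested, which left 58 of the 66. In limma, 11 of the 58 rose and 14 fell at an adjusted p under 0.05 (Benjamini-Hochberg over all 15827 genes tested). Over all genes tested, 39.3% passed, 19.1% higher and 20.2% lower, while among the guidance genes 43.1% passed, 19.0% higher and 24.1% lower, so the share that passed was near that of the table as a whole. The median log2 fold change was 0.06 for guidance genes and -0.01 for all genes, and the median size without sign was 0.825 for guidance genes and 0.484 for all genes. At least 2-fold changes that passed numbered 10 higher and 10 lower among the 58. Of all genes tested, 9.4% were at least 2-fold higher and 8.78% at least 2-fold lower, which are smaller shares than 10 of 58. That difference was not tested. For each of the 25, all 6 KO libraries lay on one side of all 3 controls, which held for 44.8% of all genes tested (21.1% higher and 23.8% lower). The genes left untested were Efna5, Epha1, Epha3, Epha7, Epha10, Slit3, Robo4 and Ntn5, with no value over 32 in any library. Among the 58, Sema4a and Ephb6 had a control mean under 10 and passed the filter through their KO values. Robo3 had a KO mean of 4.33 and passed the filter through its control values.

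Ligands and receptors both moved in both directions. Of 31 ligands tested, 5 rose and 7 fell, with a median log2 fold change of 0.02. Of 27 receptors tested, 6 rose and 7 fell, with a median of 0.07. The median size without sign was 1.11 for receptors and 0.78 for ligands. All 5 ligands that rose were semaphorins, as were 6 of the 7 that fell, and the other ligand that fell was Efnb1. Summed per kilobase of exons, ligand levels were 5553 to 8115 in KO libraries and 6192 to 6229 in controls, so the controls lay within the KO range. Receptor levels summed per kilobase were 8248 to 12290 in KO libraries and 9064 to 9112 in controls. Only sgRNA1 KO replicate 3, at 8248, lay under the controls. Library sgRNA2 KO replicate 1, at 9113, was just above them, and the other KO libraries were at 9417 to 12290. The difference was not tested.

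**Figure D1:**
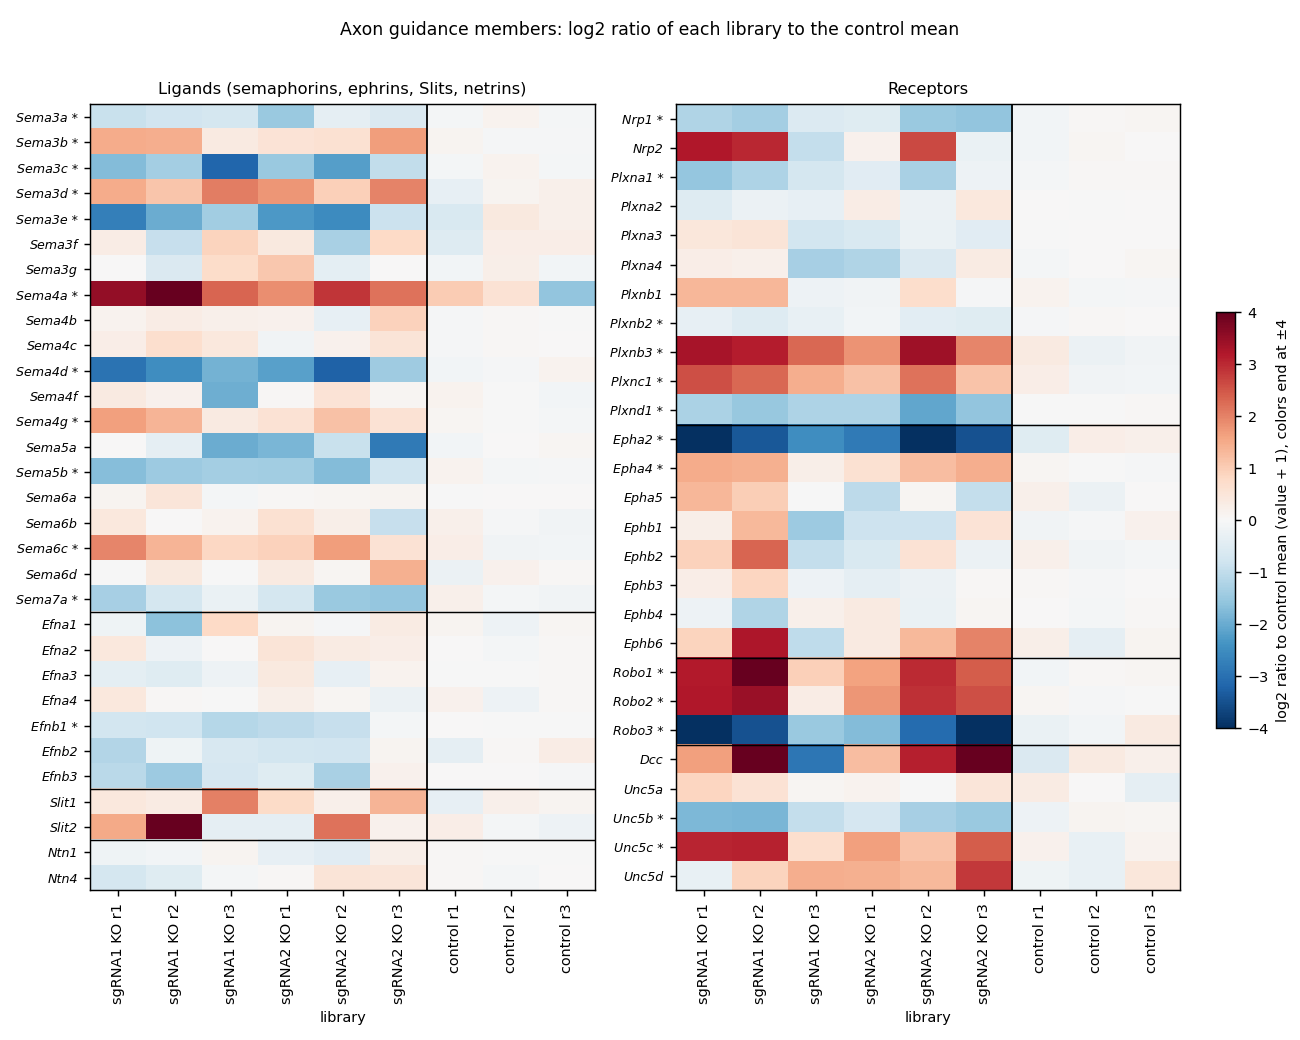
Log2 ratio of each library to the control mean for the 58 guidance genes tested, with ligands on the left and receptors on the right; columns are the 6 KO libraries and then the 3 controls, black lines part families, and asterisks mark an adjusted p under 0.05. Rows such as Plxnb3, Robo1, Epha2 and Sema4d keep 1 color over all 6 KO libraries, while Nrp2 and Dcc do not.

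Of the 20 semaphorins, all tested, 5 rose and 6 fell. Sema4d, the membrane semaphorin that binds plexin-B1, fell most. It stood at 26, 36 and 55 with sgRNA1 and 45, 21 and 76 with sgRNA2, against 194, 199 and 231 in control. Every KO library was under every control, and the log2 fold change was -2.37 (SE 0.37, limma adjusted p = 0.00216). Sema5b, a transmembrane semaphorin with thrombospondin repeats, stood at 175, 207 and 221 with sgRNA1 and 217, 171 and 326 with sgRNA2, against 626, 540 and 553 in control. This gave a log2 fold change of -1.41 (SE 0.21, limma adjusted p = 0.00163), and the groups did not overlap. Sema3c, a secreted cue, stood at 48, 62 and 17 with sgRNA1 and 57, 34 and 82 with sgRNA2, against 153, 179 and 155 in control (log2 fold change -1.83, SE 0.42, limma adjusted p = 0.00949). Sema3d, another secreted cue, went the other way, with 62, 47 and 92 with sgRNA1 and 75, 42 and 88 with sgRNA2, against 17, 23 and 25 in control. KO over control was 1.56 on the log2 scale (SE 0.30, limma adjusted p = 0.00464), and both KO groups lay above control at low counts.

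The transmembrane semaphorins Sema6c and Sema4g also rose. Sema6c stood at 1025, 683 and 468 with sgRNA1 and 501, 845 and 394 with sgRNA2, against 318, 240 and 246 in control (log2 fold change 1.21, SE 0.30, limma adjusted p = 0.0120). Sema4g stood at 1760, 1432 and 719 with sgRNA1 and 831, 1276 and 841 with sgRNA2, against 596, 558 and 529 in control. The log2 difference was 0.95 (SE 0.28, limma adjusted p = 0.0235), and sgRNA1 KO replicate 3 was the KO library nearest the controls. The limma adjusted p of Sema6c was 0.0590 without control replicate 2 and 0.0551 without control replicate 3, and that of Sema4g was 0.0608, 0.0807 and 0.0864 without control replicates 1, 2 and 3. Sema4a and Sema3b also rose, at low levels, with Sema4a at 21 to 97 in KO and 1 to 11 in control, and Sema3b at 19 to 49 in KO and 14 to 16 in control. Sema3b missed in several alternatives, with limma adjusted p of 0.0871, 0.123 and 0.120 without control replicates 1, 2 and 3, and of 0.0679 and 0.0664 without sgRNA1 KO replicates 1 and 2.

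The other semaphorins that fell were Sema3a, Sema3e and Sema7a. Sema3a, the founding collapse-inducing cue for growth cones, stood at 726, 791 and 824 with sgRNA1 and 485, 1047 and 899 with sgRNA2, against 1281, 1499 and 1281 in control (log2 fold change -0.80, SE 0.21, limma adjusted p = 0.0166, and 0.0808 and 0.0554 without control replicates 2 and 3). Sema3e, the ligand of plexin-D1, was at 5 to 21 in KO and at 25 to 51 in control (log2 fold change -1.96, SE 0.44, limma adjusted p = 0.00852, 0.0508 without control replicate 2). Sema7a, which is held on the membrane by a lipid anchor and binds plexin-C1, was at 72 to 179 in KO and at 195 to 248 in control (log2 fold change -1.0, SE 0.30, limma adjusted p = 0.0268). It missed without control replicates 1, 2 or 3 (limma adjusted p = 0.101, 0.0792 and 0.0724) and without sgRNA2 KO replicate 2 (0.0502).

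The class 3 genes Sema3d, Sema3a, Sema3e and Sema3c lie near each other on chromosome 5 of mm10, in this order. Sema3d runs from 12383385 to 12588948, Sema3a from 13125414 to 13602565, Sema3e from 14025276 to 14256689, and Sema3c from 17574281 to 17730268. The first of them rose while the other 3 fell. Of the other class 3 genes, Sema3f was at 13 to 63 in KO and 23 to 40 in control, and Sema3g was at 7 to 24 in KO and 10 to 13 in control.

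The most abundant semaphorins were not among those that passed. Sema6a, a transmembrane cue for plexin-A2 and plexin-A4, had the highest mean of the family. It stood at 8057, 10451 and 7032 with sgRNA1 and 7652, 7825 and 8079 with sgRNA2, against 7333, 7569 and 7534 in control. A log2 fold change of 0.12 was fitted (SE 0.12, limma adjusted p = 0.456). Per kilobase of exons, the control order of the family began with Sema6a at 852 ± 14.5, Sema4b at 712 ± 26.4, Sema6d at 570 ± 77.2 and Sema4c at 342 ± 11.6 (SD, n = 3). Sema5a, a relative of Sema5b, varied widely among KO libraries. It stood at 4875, 3744 and 1219 with sgRNA1 and 1341, 2566 and 669 with sgRNA2, against 4490, 4889 and 5034 in control. Pooled over guides, the log2 fold change of -1.32 (SE 0.55) did not pass in limma (adjusted p = 0.0826). With sgRNA2 alone it passed (-1.86, limma adjusted p = 0.0450), a call lost after quantile normalization, without any 1 control, and without sgRNA1 KO replicate 2 or sgRNA2 KO replicates 1 or 3. Sema5a was looked at after its values were seen.

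**Figure D2:**
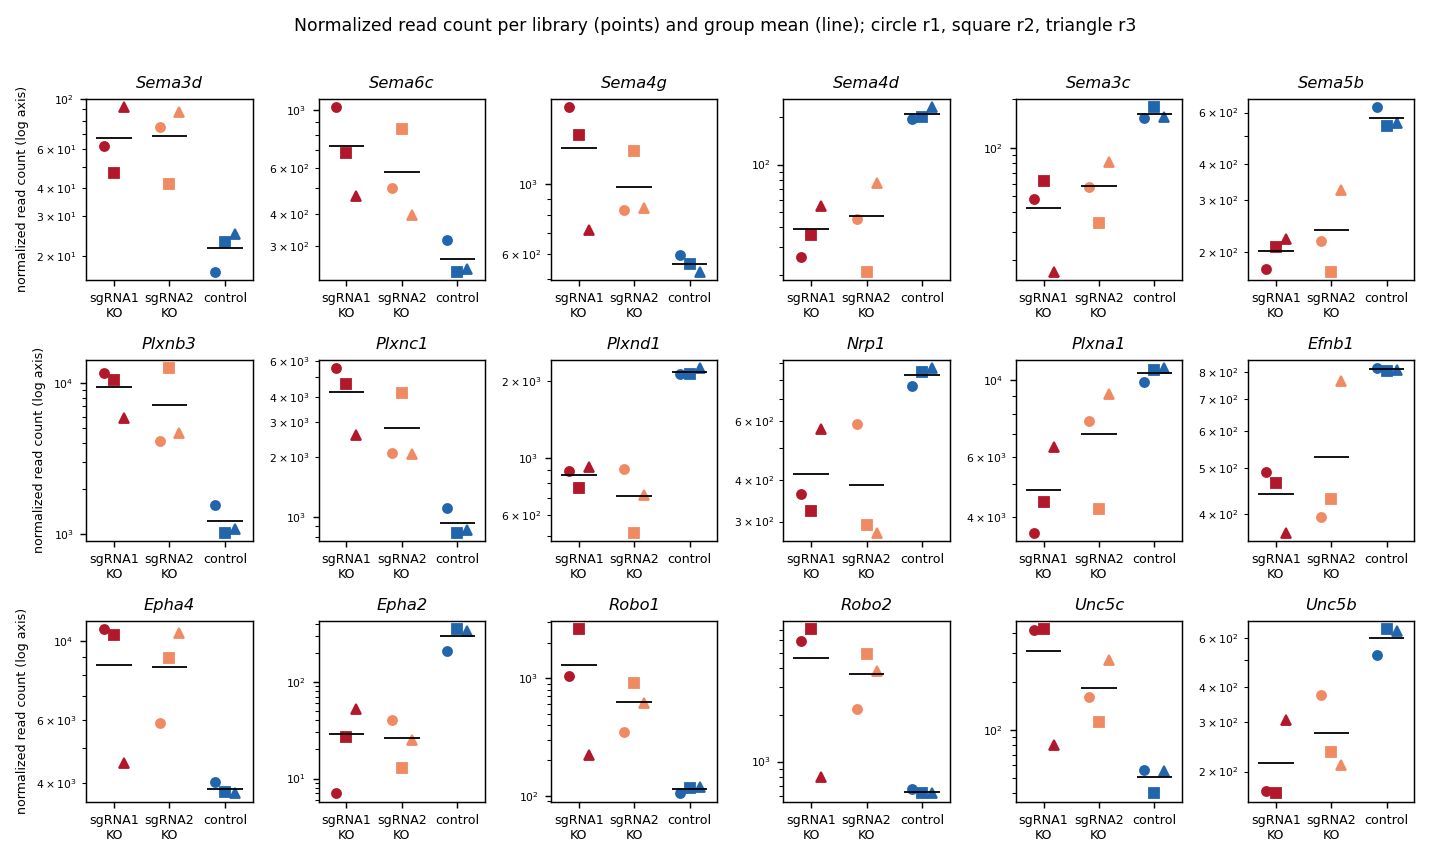
Normalized read count per library of 18 guidance genes that passed in KO against control, on log axes with a range of their own per gene; points are libraries, colors are groups, shapes are replicates and lines are group means (n = 3). Plxnb3 and Epha2 show gaps between all KO libraries and all controls, and Robo2 in sgRNA1 KO replicate 3 lies close to the controls.

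Among the 11 plexins and neuropilins, 2 rose and 4 fell. Plxnb3 (ENSMUSG00000031385, chromosome X, 73757090 to 73772514) encodes a plexin of the B class that binds semaphorin 5A, and its upstream sequence is the first of those above. It stood at 11665, 10487 and 5904 with sgRNA1 and 4123, 12554 and 4655 with sgRNA2, against 1545, 1022 and 1073 in control. The lowest KO value was above the highest control value, and the log2 fold change was 2.65 (SE 0.38, limma adjusted p = 0.00150). Plxnc1, the receptor of semaphorin 7A, stood at 5557, 4617 and 2564 with sgRNA1 and 2103, 4193 and 2063 with sgRNA2, against 1117, 838 and 861 in control (log2 fold change 1.81, SE 0.33, limma adjusted p = 0.00379). Plxnc1 rose while Sema7a, its ligand, fell.

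Plxnd1 (ENSMUSG00000030123, chromosome 6, 115954811 to 115995005), the receptor of semaphorin 3E, had the smallest adjusted p of all guidance genes. It stood at 896, 764 and 928 with sgRNA1 and 913, 514 and 721 with sgRNA2, against 2133, 2127 and 2251 in control. This gave a log2 fold change of -1.49 (SE 0.19, limma adjusted p = 0.000911), and no KO library reached a control. Plxnd1 and its ligand gene Sema3e both fell. Nrp1, the co-receptor of semaphorin 3A, stood at 362, 323 and 568 with sgRNA1 and 591, 292 and 278 with sgRNA2, against 769, 847 and 868 in control. KO over control was -1.11 on the log2 scale (SE 0.26, limma adjusted p = 0.0106, 0.0505 without control replicate 2 and 0.0504 without control replicate 3). Plxna1, a signaling partner of neuropilins, stood at 3611, 4429 and 6402 with sgRNA1 and 7630, 4217 and 9128 with sgRNA2, against 9879, 10725 and 10844 in control. The log2 difference was -0.91 (SE 0.28, limma adjusted p = 0.0281), which missed without control replicates 1, 2 or 3 (0.0689, 0.0945 and 0.0932) or sgRNA2 KO replicate 2 (0.0550). Exons of Gm26811 on the opposite strand overlap 10.7% of the Plxna1 exon bases, and it is not given in the sources used here whether the counts used strand.

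Plxnb2 had the highest level per kilobase of the guidance genes, by the mean of either group. It stood at 22682, 19969 and 23564 with sgRNA1 and 26472, 21628 and 20587 with sgRNA2, against 27732, 29675 and 28702 in control. The log2 fold change of -0.36 (SE 0.11, limma adjusted p = 0.0241) missed without control replicates 1, 2 or 3 (0.0621, 0.104 and 0.0866) and after quantile normalization (0.0785). As a share of the per-kilobase sum of plexins and neuropilins, Plxnb2 made up 37.2% ± 7.66 in KO (SD, n = 6) and 49.0% ± 1.41 in control (SD, n = 3). Plxnb3 made up 15.3% ± 5.45 in KO and 2.47% ± 0.598 in control (SD, n = 6 and 3). Plxnb3 ranked 4 of 66 by KO mean per kilobase and 18 by control mean.

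Nrp2, which serves semaphorins 3F and 3C, split the KO libraries and did not pass. It stood at 3868, 3383 and 217 with sgRNA1 and 476, 2649 and 350 with sgRNA2, against 394, 447 and 425 in control. Thus 3 KO libraries were at 2649 or more, and the others at 217 to 476, near control. A log2 fold change of 1.30 was fitted (SE 0.94, limma adjusted p = 0.287). Nrp2 was chosen after its values were seen. Plxnb1, the receptor of semaphorin 4D, was at 7654 to 22201 in KO and at 8278 to 9742 in control and did not pass (limma adjusted p = 0.315). Its high values were in sgRNA1 KO replicates 1 and 2 (22137 and 22201) and sgRNA2 KO replicate 2 (14283), the same libraries as for Nrp2.

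**Figure D3:**
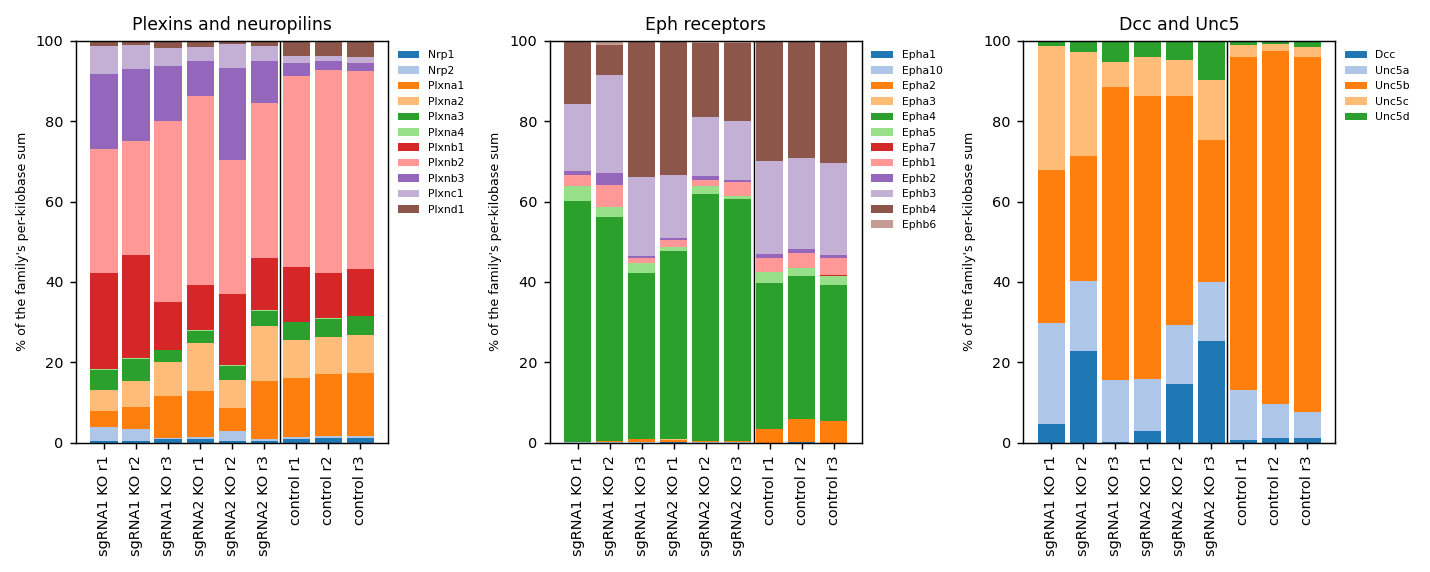
Share of each gene in the per-kilobase sum of its receptor family in each library, for plexins and neuropilins, Eph receptors, and Dcc with Unc5 receptors; KO libraries stand left of the black line and controls right of it. Plxnb3 takes 8.68% to 23.0% of its family in KO libraries and 2.07% to 3.15% in controls.

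Among the Eph receptors tested 25.0% passed, and among the ephrins tested 14.3%, against 39.3% of all genes tested. These shares rest on 8 and 7 genes, and the difference was not tested. Of 8 Eph receptors tested, out of 12, Epha4 rose and Epha2 fell. Epha4 (ENSMUSG00000026235, chromosome 1, 77367185 to 77515088), a receptor for ephrins of both classes, had the highest mean level per kilobase of the Eph genes in both groups. It stood at 10788, 10361 and 4545 with sgRNA1 and 5865, 8978 and 10501 with sgRNA2, against 4025, 3768 and 3732 in control. This gave a log2 fold change of 1.08 (SE 0.27, limma adjusted p = 0.0138), with 0.0579 and 0.0566 without control replicates 2 and 3. Libraries sgRNA1 KO replicate 3 and sgRNA2 KO replicate 1, which lie nearest the controls over all genes, had the lowest KO values of Epha4. In its family's per-kilobase sum it made up 54.3% ± 8.31 in KO (SD, n = 6) and 35.3% ± 1.30 in control (SD, n = 3).

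Epha2 (ENSMUSG00000006445, chromosome 4, 141301240 to 141329384), an ephrin-A receptor described in gliomas, had the largest fall of all guidance genes tested. It stood at 7, 27 and 52 with sgRNA1 and 40, 13 and 25 with sgRNA2, against 210, 353 and 339 in control. The highest KO library, at 52, was far under the lowest control, at 210. On the log2 scale the change was -3.63 (SE 0.55, limma adjusted p = 0.00182). The other Eph receptors tested did not pass. Of these, Ephb3 was at 1605 to 3757 in KO and 1991 to 2102 in control, Ephb4 at 814 to 2405 in KO and 1780 to 1920 in control, and Ephb1 at 132 to 888 in KO and 328 to 407 in control. Ephb2 was at 82 to 805 in KO and at 145 to 184 in control, and Ephb6, a member without kinase activity, was at 4 to 94 in KO and at 7 to 11 in control. For Ephb1, Ephb2, Ephb3 and Ephb6 the highest KO value was in sgRNA1 KO replicate 2.

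Of the 7 ephrins tested, Efnb1, a transmembrane ligand of EphB receptors, fell. It stood at 490, 464 and 365 with sgRNA1 and 393, 429 and 763 with sgRNA2, against 814, 804 and 808 in control. KO over control was -0.78 on the log2 scale (SE 0.21, limma adjusted p = 0.0182), with 0.0613, 0.0690 and 0.0674 without control replicates 1, 2 and 3. The related Efnb2 was at 80 to 194 in KO and 141 to 223 in control, and Efnb3 at 25 to 80 in KO and 68 to 72 in control, and neither passed (limma adjusted p = 0.141 and 0.0887). None of the ephrin-A genes tested passed. Efna1, Efna3 and Efna4 lie close together on chromosome 3, between 89271733 and 89338028, and Efna2 lies on chromosome 10. Efna4 was at 378 to 604 in KO and 391 to 500 in control, and Efna1, a ligand of EphA2, was at 21 to 118 in KO and 59 to 74 in control.

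All 3 Robos tested passed, against 39.3% of all genes tested, though Robo3 met the minimum mean only through its control values. The Slit ligands were scarce. Robo1 (ENSMUSG00000022883) and Robo2 (ENSMUSG00000052516), receptors of Slits, lie near each other on chromosome 16. Robo1 runs from 72308306 to 73046095 on the plus strand and Robo2 from 73891839 to 74411825 on the minus strand. Robo2 stood at 5918, 7084 and 792 with sgRNA1 and 2187, 4880 and 3807 with sgRNA2, against 669, 624 and 626 in control. The log2 difference was 2.38 (SE 0.60, limma adjusted p = 0.0129), with 0.0539 and 0.0519 without control replicates 2 and 3. Robo1 stood at 1041, 2608 and 221 with sgRNA1 and 349, 910 and 619 with sgRNA2, against 105, 117 and 120 in control (log2 fold change 2.61, SE 0.64, limma adjusted p = 0.0119). For both genes, the lowest KO value was in sgRNA1 KO replicate 3 and the next in sgRNA2 KO replicate 1.

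Robo3, a divergent Robo that acts in the crossing of the midline, fell, at a low level, and was named after its values were seen. It stood at 1, 2 and 11 with sgRNA1 and 9, 3 and 0 with sgRNA2, against 27, 30 and 42 in control (log2 fold change -3.15, SE 0.73, limma adjusted p = 0.00952). It lies on chromosome 9 from 37415669 to 37433246, next to Robo4, from 37401897 to 37415115, which was untested at 5 to 11 in KO and 2 to 6 in control. The Robo sum per kilobase was 302 ± 185 in KO (SD, n = 6) and 49.3 to 50.6 in the controls. The Slit sum per kilobase was 6.54 ± 4.24 in KO (SD, n = 6) and 2.22 ± 0.195 in control (SD, n = 3). Slit2 stood at 32, 194 and 8 with sgRNA1 and 8, 51 and 12 with sgRNA2, against 13, 10 and 9 in control. It had the highest mean count of the Slits, mostly through the library at 194, while per kilobase Slit1 was higher in both groups (3.63 in KO and 1.75 in control, against 2.0 in KO and 0.419 in control for Slit2). Slit2 did not pass (log2 fold change 1.20, SE 0.90, limma adjusted p = 0.307). Of its KO values, 3 lay among or below the controls. Slit1 was at 12 to 44 in KO and at 8 to 12 in control and did not pass (limma adjusted p = 0.125).

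Netrin-1, the diffusible ligand of Dcc and the Unc5 receptors, was the second most abundant guidance gene per kilobase, after Plxnb2, in both groups. Ntn1 stood at 10684, 11123 and 13044 with sgRNA1 and 9620, 8807 and 14343 with sgRNA2, against 12560, 11890 and 11948 in control. A log2 fold change of -0.13 was fitted (SE 0.15, limma adjusted p = 0.528), and KO libraries lay on both sides of the controls. Ntn4, a netrin found in basement membranes, was at 429 to 997 in KO and 663 to 718 in control and did not pass (limma adjusted p = 0.936).

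Among netrin receptors, Unc5c rose and Unc5b fell. Unc5b, a repulsive netrin receptor, stood at 170, 167 and 305 with sgRNA1 and 376, 235 and 211 with sgRNA2, against 522, 644 and 635 in control (log2 fold change -1.35, SE 0.27, limma adjusted p = 0.00499). Unc5c, a related receptor, stood at 422, 425 and 80 with sgRNA1 and 159, 112 and 274 with sgRNA2, against 56, 40 and 55 in control. This gave a log2 fold change of 2.01 (SE 0.53, limma adjusted p = 0.0158), with 0.0723 and 0.0534 without control replicates 2 and 3. In the per-kilobase sum of Dcc and Unc5 receptors, Unc5b made up 50.8% ± 18.5 in KO (SD, n = 6) and 86.3% ± 2.96 in control (SD, n = 3). Unc5c made up 16.1% ± 10.0 in KO (SD, n = 6) and 2.4% ± 0.57 in control (SD, n = 3).

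Dcc, the attractive netrin receptor, varied widely among KO libraries and was chosen after its values were seen. It stood at 45, 259 and 1 with sgRNA1 and 34, 126 and 319 with sgRNA2, against 9, 18 and 16 in control. The library sgRNA1 KO replicate 3 was below all controls and the other 5 above them. The log2 fold change of 1.95 did not pass (SE 1.38, limma adjusted p = 0.278). Unc5d was at 9 to 86 in KO and at 9 to 16 in control, and Unc5a at 40 to 75 in KO and at 32 to 52 in control, and neither passed (limma adjusted p = 0.0939 and 0.303). With sgRNA2 alone, Unc5d rose (log2 fold change 1.84, SE 0.55, limma adjusted p = 0.0440). That call was lost after quantile normalization, without any 1 control, without sgRNA1 KO replicate 2 and without any 1 sgRNA2 library, and Unc5d was untested at a minimum mean of 50.

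**Figure D4:**
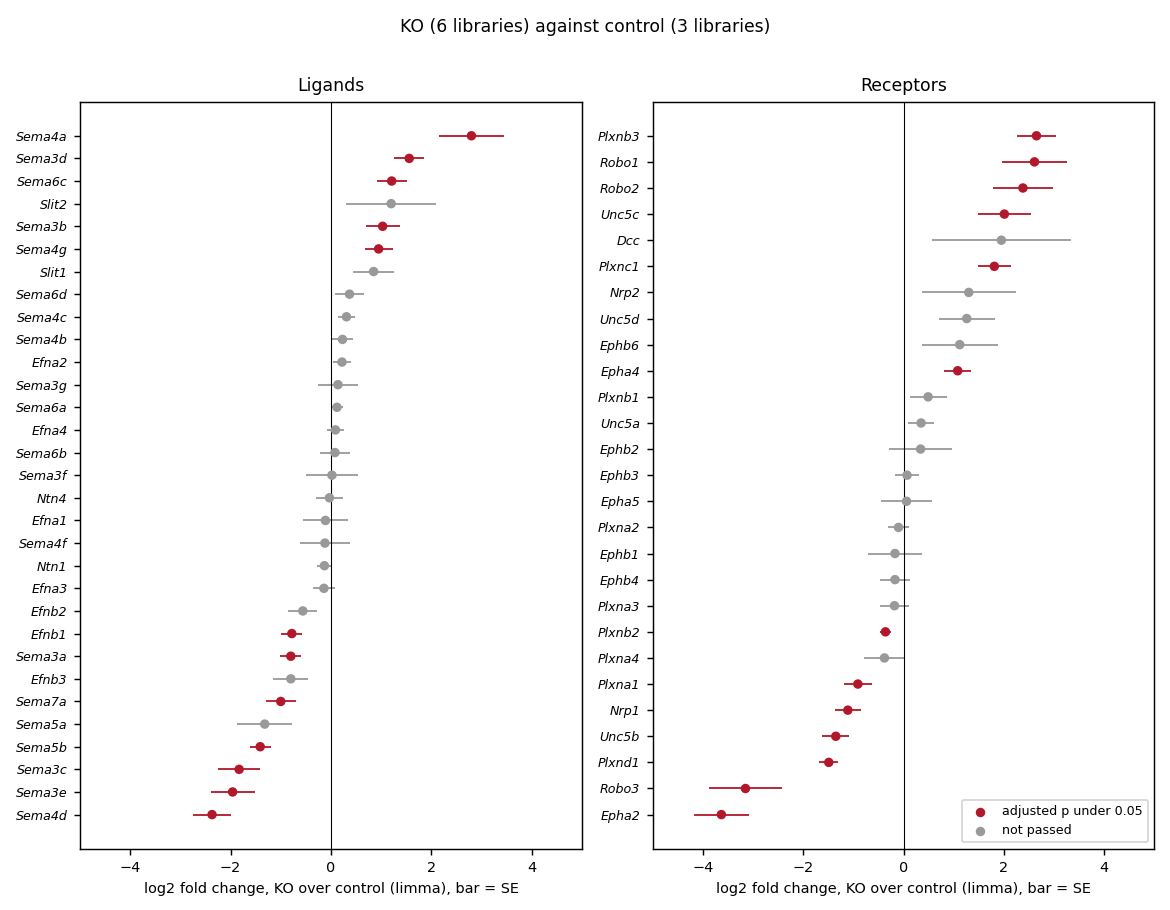
Log2 fold change of KO over control in limma for the 31 ligands and 27 receptors tested, ordered by size; bars are SE, and red marks an adjusted p under 0.05. Both panels hold red points on both sides of 0, from -2.37 (Sema4d) to 2.80 (Sema4a) among ligands and from -3.63 (Epha2) to 2.65 (Plxnb3) among receptors.

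Each guide was compared with the same 3 controls, so the comparisons are not independent of each other. With sgRNA1, 10 of 58 guidance genes rose and 13 fell, and 39.7% passed, against 36.0% of all genes tested (17.1% higher and 18.9% lower). With sgRNA2, 7 rose and 11 fell, and 31.0% passed, against 22.1% of all genes tested (11.4% higher and 10.7% lower). The genes that passed with each guide numbered 15, which is 15 of 23 with sgRNA1 and 15 of 18 with sgRNA2. The share of all genes tested that passed with both guides is not given here. This overlap is therefore not a result about the guidance genes in particular. The 15 were Epha2, Epha4, Nrp1, Plxnb3, Plxnc1, Plxnd1, Robo2, Robo3, Sema3c, Sema3d, Sema3e, Sema4a, Sema4d, Sema5b and Unc5b. Plxnb3 had log2 fold changes of 2.91 (SE 0.43, limma adjusted p = 0.00438) with sgRNA1 and 2.38 (SE 0.43, adjusted p = 0.00883) with sgRNA2. Epha2 had -3.69 (SE 0.66, limma adjusted p = 0.00740) with sgRNA1 and -3.58 (SE 0.66, adjusted p = 0.0102) with sgRNA2. Without sgRNA1 KO replicate 3, the counts with sgRNA1 became 20 risen and 16 fallen, when 23.7% of all genes were higher and 26.3% lower. In that run 12 rose with sgRNA2 in place of 7, and the share of all genes that rose with sgRNA2 is not given here. Without control replicate 2, 3 rose and 5 fell with sgRNA1 (4.3% of all genes higher and 3.6% lower). In the same setting 1 rose and 1 fell with sgRNA2, Plxnb3 and Plxnd1 (1.97% of all genes higher and 1.89% lower). Both also passed with sgRNA1, so 2 of the 15 were shared. Leaving out control replicate 3 instead gave equal counts. These were 3 risen and 5 fallen with sgRNA1 (5.05% of all genes higher and 4.47% lower), and 1 risen and 1 fallen with sgRNA2 (shares of all genes not given here).

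Between the guides, limma called 0 guidance genes and 0 of the 15827 genes tested (0.0%). At an unadjusted p under 0.05 there were 3 guidance genes and 474 genes in all (2.99%). The 3 were Ntn4, Epha5 and Plxna2. Ntn4 averaged 528 ± 116 in sgRNA1 KO and 896 ± 152 in sgRNA2 KO (SD, n = 3 each), with a log2 difference of -0.77 (SE 0.20, limma adjusted p = 0.778). Epha5 averaged 954 ± 404 in sgRNA1 KO and 356 ± 166 in sgRNA2 KO (SD, n = 3 each), a log2 difference of 1.41 (SE 0.39). Plxna2 averaged 9458 ± 930 in sgRNA1 KO and 13817 ± 3103 in sgRNA2 KO (SD, n = 3 each), a log2 difference of -0.52 (SE 0.17). Without sgRNA1 KO replicate 3, Epha5 and Plxna3 were higher with sgRNA1 (2 calls, with 0.568% of all genes called higher).

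Beyond these families, a list of further cues, co-receptors and adhesion partners had 15 of 41 tested genes risen and 4 fallen in KO, with a median log2 fold change of 0.52. In this list 46.3% passed, against 39.3% of all genes. Draxin, a secreted antagonist of netrin that binds Dcc, stood at 18755, 9953 and 1564 with sgRNA1 and 1500, 6703 and 1623 with sgRNA2, against 537, 225 and 277 in control (log2 fold change 3.67, SE 0.84, limma adjusted p = 0.00887). Dscaml1, a neuronal adhesion molecule, averaged 1626 ± 1312 in KO (SD, n = 6) and 90.7 ± 21.1 in control (SD, n = 3), with a log2 fold change of 3.56 (SE 0.83, limma adjusted p = 0.00992). Met, the hepatocyte growth factor receptor that couples to B-class plexins, stood at 20, 18 and 14 with sgRNA1 and 15, 16 and 19 with sgRNA2, against 276, 378 and 411 in control. KO over control was -4.30 on the log2 scale (SE 0.21, limma adjusted p = 2.55e-05), and the KO libraries stayed within 14 to 20. Cdon, an adhesion protein and hedgehog co-receptor, fell to 679 ± 357 in KO (SD, n = 6), against 4824 ± 697 in control (SD, n = 3), with a log2 fold change of -2.98 (SE 0.40, limma adjusted p = 0.00114).

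A list of intracellular mediators had 11 of 71 tested genes risen and 15 fallen, with a median log2 fold change of 0.02, and 36.6% passed. Anks1b, which encodes an adaptor of synapses related to a partner of Eph receptors, averaged 919 ± 611 in KO (SD, n = 6) and 80.3 ± 21.8 in control (SD, n = 3). The log2 difference was 3.17 (SE 0.64, limma adjusted p = 0.00542). Rnd2, a small GTPase of migrating neurons, averaged 10004 ± 3158 in KO and 3726 ± 493 in control (SD, n = 6 and 3), with a log2 fold change of 1.37 (SE 0.26, limma adjusted p = 0.00464). Chn1, a chimaerin that acts after EphA4, fell to 1568 ± 295 in KO, against 4062 ± 551 in control (SD, n = 6 and 3), with a log2 fold change of -1.38 (SE 0.17, limma adjusted p = 0.000802).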

How the data were processed

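Poly(A) RNA of 9 libraries was analysed, 3 each of sgRNA1 KO, sgRNA2 KO and control, grouped by GEO's labels. The aligner was STAR (2.4.1d) on mm10, with featureCounts and DESeq2 also listed, per the submitters' processing notes. The annotation release and strand setting are not given in the sources used here. The deposited table holds a score per gene and library, a read count that the authors scaled with 1 factor per library and rounded, as inferred from the steps of its low values. Count-based tests were not run on these scaled values. Log2(value + 1) was tested for the 15827 of 21899 genes with a mean of at least 10, by limma 3.58.1 under R 4.3.3 (eBayes with trend), and two-sided p-values were Benjamini-Hochberg adjusted over all of them. KO against control used 2 groups. The comparisons of each guide and between guides used 1 fit of 3 groups. The fit was tested on simulated counts with the same spread setting for all libraries. That simulation does not cover the wider spread of the KO libraries in these data.

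The members, the lists and the tests were chosen with earlier results of these data known. Values of every library were given for up to 3 rises and 3 falls per family that passed and averaged 50 or more in their higher group, and for the gene with the highest mean. The 2 largest rises and falls of each list of other pathway genes were named by the same rule, except 1 that is not reported here. Other genes given with the value of every library were chosen after their values were seen. Positions and exon lengths came from GENCODE M21 (GRCm38, the mm10 assembly), which held all 66 genes. Promoters were RefSeq's on GRCm38.p6. Same-numbered libraries did not pair. The analysis was repeated with a pseudocount of 0.5 or 5, without a filter or with a minimum mean of 50, after other scalings, with group variance weights, with the replicate number as a block, on the 6 libraries of a comparison alone, and with libraries left out. Figures used Python 3.11.15 with matplotlib 3.10.9.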

Additional observations from a re-analysis of the deposited data

Results flagged for a closer look

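In 3 of the 67 genes examined, 1 of the 6 KO libraries stood far from the other 5 on the log2 scale, judged by its gap to the nearest library as a share of the whole range. Chance flags about 1 in 20 groups in this way. Sema6d was highest in sgRNA2 KO replicate 3, at 16044, while the rest of the KO libraries held 5904 to 7850 (gap ratio 0.715). Sema6a stood at 10451 in sgRNA1 KO replicate 2, against 7032 to 8079 in the others (gap ratio 0.65). Sema4f stood at 6 in sgRNA1 KO replicate 3, against 27 to 39 in the others (gap ratio 0.795).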

How the results depend on the processing

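Of the 25 guidance genes called in KO against control, 10 were tested and past the threshold in every alternative run for that comparison: Epha2, Plxnb3, Plxnc1, Plxnd1, Robo1, Sema3c, Sema3d, Sema4d, Sema5b and Unc5b. Another 2, Robo3 and Sema4a, passed wherever they were tested but fell under the minimum mean of 50. The other 13 missed without at least 1 of the controls, and 4 of them (Sema3b, Sema7a, Plxna1 and Plxnb2) missed in another alternative too. None of the 25 changed its sign in an alternative run. With 1 library left out in turn, the guidance genes called in KO against control ranged from 5 to 12 risen and from 7 to 16 fallen. The lowest counts came without control replicate 2 (5 risen, 7 fallen) and control replicate 3 (5 risen, 8 fallen), when 9.29% and 9.85% of all genes rose and 8.13% and 9.0% fell. With sgRNA1 the counts ranged from 3 to 20 risen and from 5 to 16 fallen, and with sgRNA2 from 1 to 12 risen and from 1 to 13 fallen. The shares of all genes moved too. With sgRNA1, 4.3% of all genes rose and 3.6% fell without control replicate 2, and 23.7% rose without sgRNA1 KO replicate 3. For sgRNA2 the low shares without control replicate 2 are given above. Between the guides they ranged from 0 to 2 higher and were 0 lower throughout. Without sgRNA1 KO replicate 3 and sgRNA2 KO replicate 1 together, 21 rose with sgRNA1 and 14 with sgRNA2, when 24.7% and 18.7% of all genes rose. With only the 6 libraries compared, 12 rose with sgRNA2, when 14.8% of all genes rose. The number of the replicate does not pair libraries: correlations of deviations between same-numbered libraries ran from -0.345 to 0.332. With the replicate block, 10 rose and 14 fell in KO against control, when 17.9% of all genes rose and 18.7% fell. In that run 7 fell with sgRNA2 in place of 11, and the share of all genes that fell with sgRNA2 is not given here. Of the further cues, 9 to 18 rose and 3 to 6 fell with 1 library left out. Of the mediators, 4 to 14 rose and 5 to 20 fell with 1 library left out. In KO against control, 9.29% to 23.0% of all genes rose and 8.13% to 25.2% fell in those runs. With group variance weights 19 mediators rose, when 26.5% of all genes rose. Without both KO libraries near the controls 18 mediators rose, when 23.3% of all genes rose. The Gpd1 log2 difference ranged from -2.33 to -1.53 with 1 library left out, and without any 1 control its exact permutation p was 0.0714, the smallest that design can give. The cause of these changes was not tested. Genes with values under about 10 are limited by depth.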
